A study of Mus musculus with 4 samples.

Results

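Accessible chromatin was examined at 9 genes of the mesenchymal matrix and its proteases in endothelial cells sorted from mouse retina. The genes were those of the fibrillar collagen chains Col1a1, Col1a2 and Col3a1, the matrix glycoproteins Fn1 and Sparc, the matrix metalloproteinases Mmp2, Mmp9 and Mmp14, and the calcium-binding protein S100a4. They were chosen by name, as 9 of 21627 protein-coding genes on the autosomes and X, with earlier results of these data known. Each gene was described by every ATAC-seq peak that overlapped its body or the 10 kb on either side, called the locus window here, and by the peaks within 1 kb of either end of the gene.

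ATAC-seq inserts sequencing adapters into open DNA with a transposase, and a peak is a stretch where insertions pile up over the library's background. The series compared retinal endothelial cells of control mice with those of mice whose genotype label is Zeb1 knockdown and whose sample titles say CKO. Zeb1 is a DNA-binding protein with zinc fingers, best known for repressing epithelial genes and for its part in epithelial to mesenchymal transition. There were 2 libraries in each group, all from C57BL/6 mice labelled P16, each made from 2000 cells isolated by FACS. The Cre driver, the allele and the agent used for the knockdown are not given in the sources used here, and neither is whether both libraries of a group stem from different mice, so their spread may be technical. Peak lists measure neither Zeb1 RNA nor protein and do not check the genotype label.

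Fibrillar collagens form the fibres of connective tissue, fibronectin links such fibres to cell-surface integrins, and Sparc binds collagen and calcium in the matrix. Mmp2 and Mmp9 are gelatinases that cut denatured collagen and basement membrane collagen, and Mmp14 is a membrane-bound protease known for cutting fibrillar collagen and for activating pro-Mmp2. These genes and S100a4, also called fibroblast-specific protein, are widely used as signs of a mesenchymal state, and several of them are also expressed in growing vessels and in the pericytes that surround capillaries.

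The deposited lists held 7608 and 13672 peaks in control replicates 1 and 2, and 13689 and 19886 in knockdown replicates 1 and 2. The lists give no read depth, so a gene without a listed peak cannot be told from a gene with too few reads. With 2 libraries against 2, a two-sided exact permutation test cannot go below p = 0.333, so no gene was tested on its own and the members are described by values and counts. As a check of the cell type, locus-window peaks were counted at 12 endothelial marker genes. In control 1, control 2, knockdown 1 and knockdown 2 they were found for 9, 12, 12 and 12 (all genes: 35.4%, 53.9%, 54.6% and 61.7%). For 12 photoreceptor genes the counts were 4, 11, 7 and 12, so the check hardly separated these lists in the replicate 2 libraries. Ends of endothelial genes held a peak for 3, 5, 6 and 7 of 12 (all genes: 22.0%, 38.5%, 39.5% and 45.2%). Cdh5 (VE-cadherin), Tie1 and Cldn5 did so in every library and 5 of the 12 in none. Among 10 Muller glia and astrocyte genes, the ends of Clu, Vim and Glul also carried a peak in every library. A gene end was held by every library for 20.9% of all genes.

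The 9 locus windows held 31 peaks in all. There was 1 peak in control replicate 1, 8 in control replicate 2, 9 in knockdown replicate 1 and 13 in knockdown replicate 2. These made up 0.0131%, 0.0585%, 0.0657% and 0.0654% of the respective lists. Control replicate 1 therefore stood apart from the other libraries in its count and its share, while the shares of control replicate 2 and both knockdown libraries lay close together. Of the 31 peaks, 13 lay inside a gene body, 3 across a gene end and 15 outside the gene. A peak in the locus window was listed for 1 and 4 of the 9 genes in control replicates 1 and 2, and for 5 and 7 in knockdown replicates 1 and 2. Over all genes, the matching shares were 35.4%, 53.9%, 54.6% and 61.7%. This order of the libraries rested on the full lists. With the 7608 strongest peaks of each library, 1, 4, 2 and 1 of the 9 genes had a locus peak in control 1, control 2, knockdown 1 and knockdown 2, against 35.4%, 39.0%, 38.8% and 38.4% of all genes. Keeping only peaks with −log10 q of 3 or more, the members' counts were 0, 4, 2 and 4, against 20.4%, 44.9%, 45.1% and 52.6%. Under both limits, control replicate 2 held as many members as either knockdown library or more. In any library, 7 of the 9 had such a peak, 77.8% against 65.8% of all genes.

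**Figure D1:**
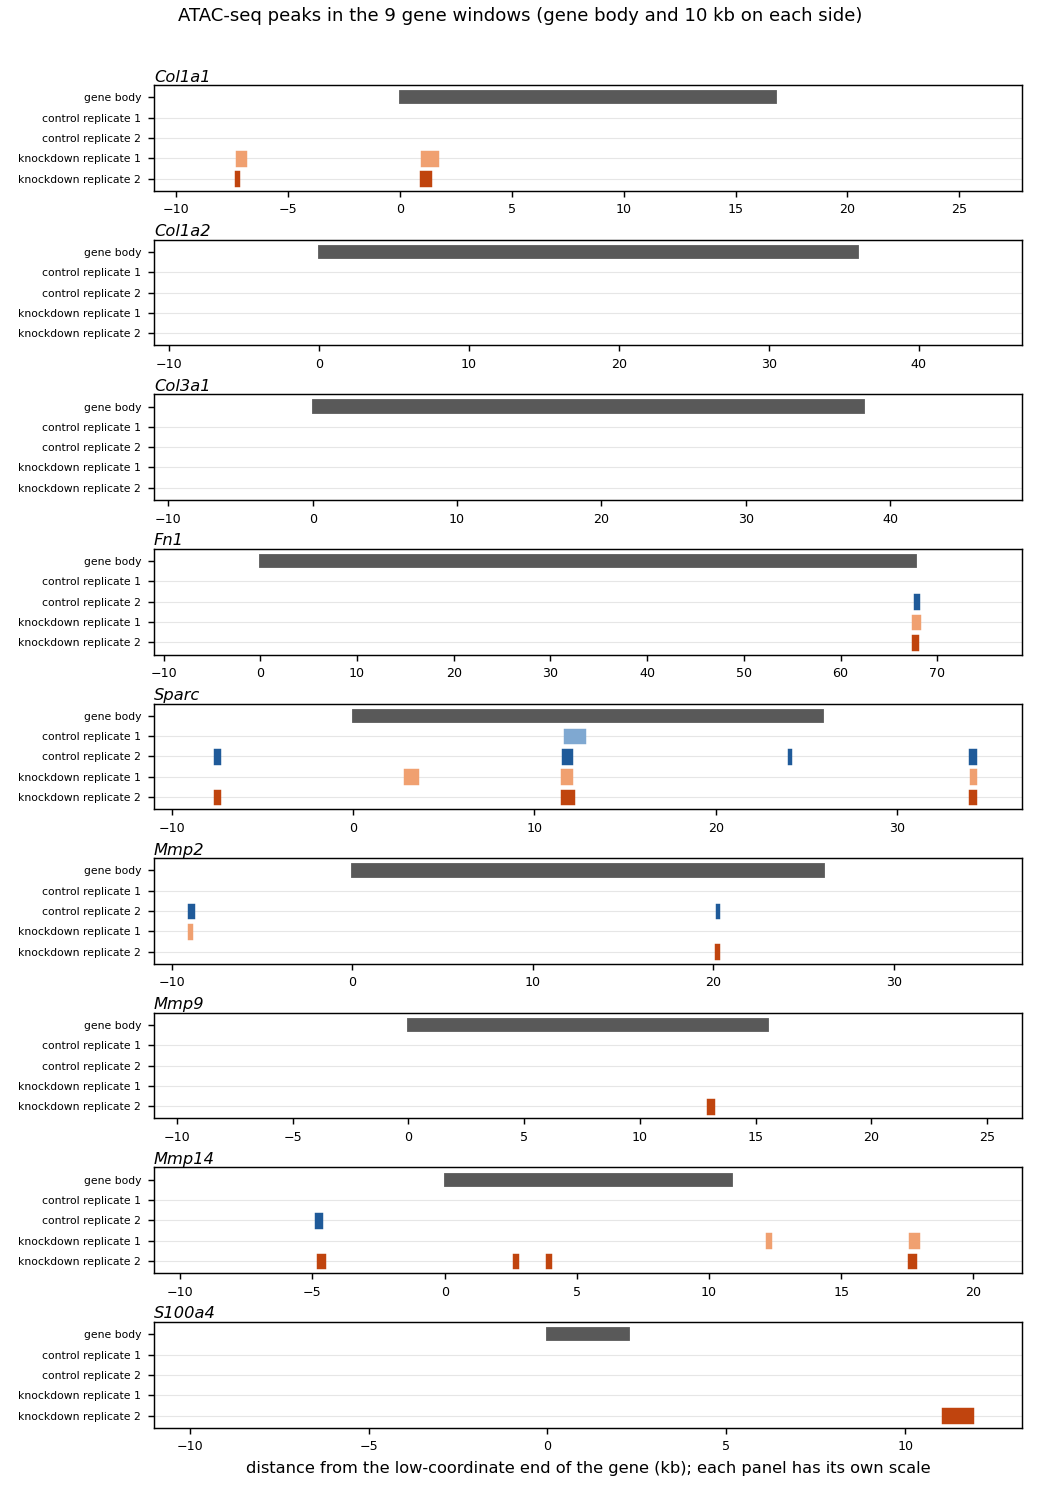
Position of every peak in the locus windows of the 9 genes. The x axis is the distance in kb from the low-coordinate end of the gene, with a separate scale in each panel; the grey bar is the gene body, the rows are the 4 libraries and each coloured block is a deposited peak drawn to scale. Col1a2 and Col3a1 have no peak in any library, Col1a1 has 2 peaks in each knockdown library and 0 in the controls, and the single position with a peak in all 4 libraries lies inside Sparc.

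Gene ends were seldom occupied. Among the 9 genes, 0 had a gene-end peak in control replicate 1, 1 in control replicate 2 and 2 in each knockdown library, where the shares over all genes were 22.0%, 38.5%, 39.5% and 45.2%. Only Fn1 and Col1a1 had a gene-end peak in any library, which is 22.2% of the members against 48.5% of all genes. For 5 of the 9, Col1a2, Col3a1, Sparc, Mmp14 and S100a4, the RefSeq promoter table on GRCm38.p6 gives a window from 250 bases before the start of the gene to 50 bases after it. None of these 5 windows overlapped a peak in any library, whereas 48.4% of the 17273 genes with such a window had a peak there in at least 1 library. Col1a1, Fn1, Mmp2 and Mmp9 were not matched in that table.

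The promoters of both collagens without a peak, of Sparc and of Mmp14 are shown because these genes held no peak at their start, although Sparc and Mmp14 held peaks elsewhere in their windows. Each runs 5′ to 3′ on the strand of the gene over 270 bases, the last 20 of them after the start. They lie at chr6:4505368-4505637 (plus strand) for Col1a2, chr1:45311288-45311557 (plus strand) for Col3a1, chr11:55420061-55420330 (minus strand) for Sparc and chr14:54431348-54431617 (plus strand) for Mmp14. Capitals mark matches to CACCTG, the E2-box known to be bound by Zeb1, to the AP-1 site TGANTCA or to the GC box GGGCGG, on either strand.
Col1a2: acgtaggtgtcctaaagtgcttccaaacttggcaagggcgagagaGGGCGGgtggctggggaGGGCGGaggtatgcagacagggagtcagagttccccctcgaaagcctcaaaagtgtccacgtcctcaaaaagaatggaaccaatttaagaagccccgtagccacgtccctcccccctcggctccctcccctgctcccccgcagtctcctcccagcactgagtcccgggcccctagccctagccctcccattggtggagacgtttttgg
Col3a1: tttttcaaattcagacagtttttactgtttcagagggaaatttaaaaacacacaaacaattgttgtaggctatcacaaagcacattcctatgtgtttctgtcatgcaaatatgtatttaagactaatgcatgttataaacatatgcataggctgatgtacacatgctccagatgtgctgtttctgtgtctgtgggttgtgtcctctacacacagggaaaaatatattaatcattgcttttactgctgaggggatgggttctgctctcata
Sparc: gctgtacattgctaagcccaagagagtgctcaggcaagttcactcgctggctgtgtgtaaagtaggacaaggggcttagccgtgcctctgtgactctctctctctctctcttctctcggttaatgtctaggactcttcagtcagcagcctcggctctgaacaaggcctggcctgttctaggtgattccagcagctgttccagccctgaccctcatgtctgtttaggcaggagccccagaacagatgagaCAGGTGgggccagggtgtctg
Mmp14: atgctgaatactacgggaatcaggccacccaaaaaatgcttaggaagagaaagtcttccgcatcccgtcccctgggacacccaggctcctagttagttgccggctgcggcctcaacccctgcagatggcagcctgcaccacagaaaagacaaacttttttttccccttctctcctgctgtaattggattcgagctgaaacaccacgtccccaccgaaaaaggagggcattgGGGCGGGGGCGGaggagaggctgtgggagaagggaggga
The GC box occurred at 2 places in the Col1a2 window and at 2 in the Mmp14 window, those of Mmp14 directly next to each other. The E2-box occurred once, in Sparc, as its reverse complement CAGGTG across the start of the gene. The AP-1 site was absent from all 5 windows, and Col3a1 and S100a4 held none of the 3 motifs. Over all 32619 promoter windows, taken at 300 bases and so longer than the 270 shown, 35.9% held a GC box, 20.3% an E2-box and 7.85% an AP-1 site. Such matches are thus common and mark no binding by themselves. The 250 bases before the start were 62% G and C in Col1a2 and 35.2% in Col3a1, around a median of 52.4% over all windows.

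The fibrillar collagen genes ranged from no peak at all to peaks in both knockdown libraries. Col1a1, which encodes the alpha 1 chain of type I collagen (chromosome 11, 94936224 to 94953042, mm10), had 0 peaks in each control library and 2 in each knockdown library. The first position lay outside the gene on its low-coordinate side, at 94928878 to 94929355 in knockdown replicate 1 and at 94928829 to 94929028 in knockdown replicate 2. The second lay inside the gene, at 94937165 to 94937935 and at 94937115 to 94937618. The groups did not overlap in their number of peaks at Col1a1, and 9.42% of all genes likewise had more locus peaks in both knockdown libraries than in either control. It was the only one of the 9 genes with the pattern called knockdown-only here, a peak in both knockdown lists and in no control list. This held at a gene end, where 3.80% of all genes were knockdown-only, and over the locus window, where 3.96% were. A count of 1 in 9 is 11.1%. The reverse pattern, control-only, was found for 0 of the 9 at gene ends and over the locus window, against 0.0324% and 0.190% of all genes.

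The Col1a1 calls were weak. In their own lists, ordered from the strongest peak by the deposited −log10 p, the peaks inside the gene stood at 86.6% and 86.3% and those outside it at 84.6% and 93.1%, for knockdown replicates 1 and 2. The peaks inside the gene began 941 and 891 bp from the gene end, just within the 1 kb limit. With a limit of 0.5 kb, or with peaks of a −log10 q of at least 3, Col1a1 was no longer held by the knockdown libraries at a gene end. The same −log10 q limit removed every Col1a1 peak.

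Col1a2, which encodes the partner chain alpha 2 of type I collagen (chromosome 6, 4505618 to 4541543), had 0 peaks in its 55.9 kb window in each of the 4 libraries. Col3a1, the type III collagen chain (chromosome 1, 45311538 to 45349706), likewise had 0 peaks in 58.2 kb in each library. From the Col1a2 promoter window, the nearest peak lay 256424, 95445, 243321 and 95200 bp away in control 1, control 2, knockdown 1 and knockdown 2. From that of Col3a1 it lay between 475722 and 483646 bp away. A locus window without a peak in any library was found for 34.2% of all genes, and for 19.8% of the 6547 genes at least as long as Col1a2. The chains of type I collagen thus differed in the full lists only: Col1a1 held peaks in both knockdown libraries and Col1a2 held none. With the 7608 strongest peaks of each library, or with a −log10 q of at least 3, neither gene held a locus peak in any library.

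Both matrix glycoprotein genes held peaks in the control group as well. Fn1, which encodes fibronectin (chromosome 1, 71585473 to 71653280), had 0 peaks in control replicate 1 and 1 in each of the other libraries, always across the high-coordinate end of the gene. This peak ran from 71653074 to 71653580 in control replicate 2, from 71652911 to 71653647 in knockdown replicate 1 and from 71652909 to 71653487 in knockdown replicate 2. It ranked at 42.2%, 38.1% and 51.4% of the respective lists, near the middle of each. The groups overlapped, since control replicate 2 held the peak as the knockdown libraries did. Missing only control replicate 1 was a common pattern, found for 12.6% of all genes at gene ends and for 16.3% over the locus window.

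Sparc (chromosome 11, 55394159 to 55420080) was the member with the most peaks: 1 in control replicate 1, 4 in control replicate 2 and 3 in each knockdown library. It was the only member with a locus peak in all 4 libraries, against 32.1% of all genes. Its shared region, at 55405613 to 55406955 after merging, lies inside the gene, 13076 bp from the promoter window. The peak there ranked at 90.9% in control replicate 1, 35.7% in control replicate 2, 13.5% in knockdown replicate 1 and 23.6% in knockdown replicate 2. The peaks of both knockdown libraries at this position were the best-ranked of all 31 in the member windows, and that of control replicate 1 was the broadest, at 1158 bp. A second region beyond the start of Sparc, at 55428121 to 55428532, was held by control replicate 2 and both knockdown libraries. Another region, at 55386489 to 55386808 beyond its far end, was held by control replicate 2 and knockdown replicate 2. A further peak was listed in control replicate 2 alone (55418120 to 55418326) and another in knockdown replicate 1 alone (55396959 to 55397735).

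None of the matrix metalloproteinase genes had a gene-end peak in any library, and their locus peaks lay in different libraries from gene to gene. Mmp2, gelatinase A (chromosome 8, 92827290 to 92853421), had 0 peaks in control replicate 1, 2 in control replicate 2 and 1 in each knockdown library. The knockdown libraries did not share a position: knockdown replicate 1 held the region outside the gene at 92818174 to 92818497, knockdown replicate 2 held the region inside it at 92847395 to 92847615, and control replicate 2 held both. Mmp9, gelatinase B (chromosome 2, 164940326 to 164955850), had 0 peaks in the controls and in knockdown replicate 1, and 1 in knockdown replicate 2, at 164953238 to 164953523. That peak ranked at 98.2% of its list, among the weakest. A locus peak in knockdown replicate 2 alone was found for 4.53% of all genes.

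Mmp14 (chromosome 14, 54431598 to 54442456) had 0 peaks in control replicate 1, 1 in control replicate 2, 2 in knockdown replicate 1 and 4 in knockdown replicate 2. The counts of the groups did not overlap, as at Col1a1 and at no other member. Such counts were found for 2 of the 9 members and for 9.42% of all genes. However, the single control peak and its counterpart in knockdown replicate 2 lie across an end of the neighbouring gene Mrpl52, which encodes a mitochondrial ribosomal protein. The region on the far side of the gene, at 54449109 to 54449525, was knockdown-only, at ranks of 86.4% and 89.4%. The other Mmp14 peaks were listed in 1 library each, at 54434171 to 54434373 and 54435431 to 54435630 in knockdown replicate 2 and at 54443738 to 54443937 in knockdown replicate 1. The last of these lay 1282 bp from the gene end, just outside the 1 kb limit.

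S100a4 (chromosome 3, 90603770 to 90606045) had 0 peaks in the controls and in knockdown replicate 1, and 1 in knockdown replicate 2, at 90614809 to 90615658. This peak lay 8764 bp from S100a4 and 395 bp from an end of S100a6, a neighbour in the same gene cluster. It was the only peak in the window, so no library listed a peak in S100a4 itself.

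**Figure D2:**
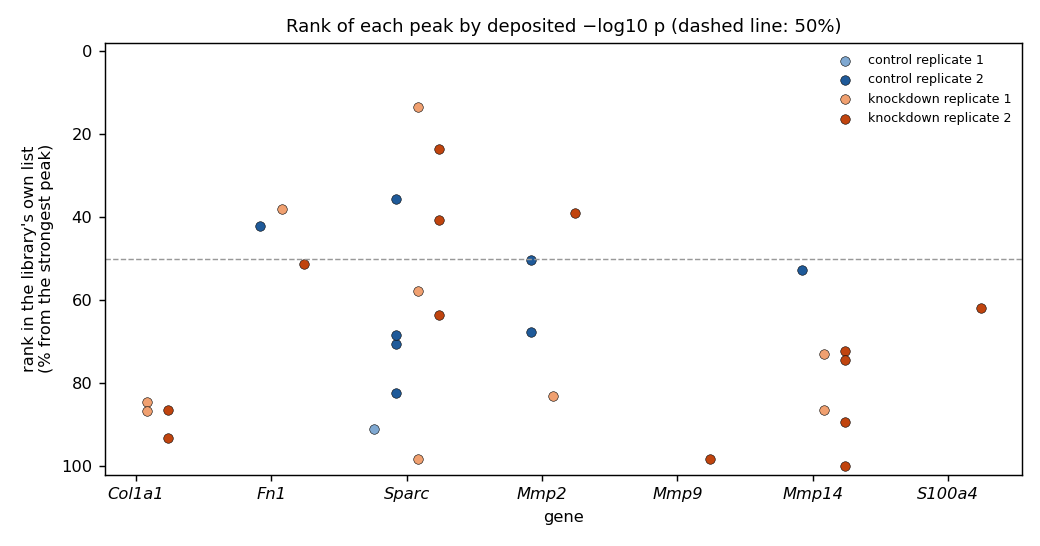
Rank of each of the 31 peaks within the list of its own library. The y axis gives the position from the strongest peak in percent of the list (0 is strongest, the axis runs downward), the x axis the 7 genes that held a peak, and the colour the library. Most points lie below the dashed line at 50%: 7 of 31 peaks are in the stronger part of their list, and the best, at 13.5%, belongs to Sparc.

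Most peaks in these windows came from the weaker part of their lists. Of the 31, 7 ranked within the first 50% and 2 within the first 25%, both of these inside Sparc. The median rank was 60.2% in control replicate 2, 83.0% in knockdown replicate 1 and 72.2% in knockdown replicate 2, and the single peak of control replicate 1 stood at 90.9%. Their median width was 322, 478 and 303 bp in control replicate 2, knockdown 1 and knockdown 2, against 343, 445 and 384 bp over the whole lists. The ranks were computed within each list from the authors' −log10 p and do not compare libraries.

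Merging the peaks of the 4 libraries gave 17 regions in the member windows. Of these, 3 were knockdown-only, 2 at Col1a1 and 1 at Mmp14, which is 17.6% against 10.1% of all 25263 regions. None was held by both controls and neither knockdown library, a pattern of 0.158% of all regions. Only 1 region was held by all 4 libraries, 5.88% against 20.3%, and 7 were held by a single library, 41.2% against 41.9%. The 3 regions did not keep this pattern when only peaks with a −log10 q of at least 3 were used, which left 0.

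Some of the regions went with the replicate number and not with the genotype. Both libraries numbered 2, and neither numbered 1, held 3 of the 17 regions: that beyond the far end of Sparc, that inside Mmp2 and that at Mrpl52 near Mmp14. This was 17.6%, against 7.66% of all regions. Photoreceptor marker genes held gene-end peaks in the same libraries, with 7 of 12 in control replicate 2, 6 in knockdown replicate 2 and 0 in each replicate 1 library. The shares of all genes were 38.5% and 45.2% in those replicate 2 libraries, and 22.0% and 39.5% in control and knockdown replicate 1. Over the locus window photoreceptor genes held peaks in all 4, with 4 in control 1, 11 in control 2, 7 in knockdown 1 and 12 in knockdown 2. There the shares of all genes were 35.4%, 53.9%, 54.6% and 61.7%. The part of photoreceptor DNA in these 3 regions was not tested. Within replicate number 1, 4 members had a locus peak in the knockdown library and not in the control (Col1a1, Fn1, Mmp2 and Mmp14), a pattern of 21.5% of all genes. Within number 2 there were 3 (Col1a1, Mmp9 and S100a4), a pattern of 9.57% of all genes. The reverse was found for 0 members in either number, against 2.35% and 1.83% of all genes. At gene ends the pattern was found for Col1a1 and Fn1 in number 1 (18.1% of all genes) and for Col1a1 in number 2 (8.58%). In both numbers the knockdown list is longer than the control list.

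Other genes of matrix assembly and turnover were taken from 6 lists with 92 genes. Gene-end peaks were listed for 4 of them in control 1, 14 in control 2, 17 in knockdown 1 and 26 in knockdown 2. Those with the knockdown-only pattern numbered 8, or 8.70% against 3.80% of all genes, and 0 were control-only, against 0.0324%. Gene ends held by all 4 libraries numbered 4, or 4.35% against 20.9%. Over the locus window the counts were 17, 35, 36 and 54 in the same order, and 8 genes had the knockdown-only pattern (8.70% against 3.96%). These are counts over lists written with earlier results of these data known, and no set test was run.

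The 8 genes with knockdown-only gene ends came from 5 of the lists. Among 21 genes of collagen folding, processing and crosslinking they were Serpinh1, the collagen chaperone of the endoplasmic reticulum, and Bmp1, the protease that removes the C-terminal propeptide of procollagens. P4hb and P4ha1, the subunits of collagen prolyl 4-hydroxylase, were held by all 4 libraries in that list, at ranks no weaker than 4.73% and 11.8%. Among the 14 other collagens it was Col16a1, among 20 matrix glycoproteins and proteoglycans Ccn1 and Thbs1 (thrombospondin 1, an inhibitor of angiogenesis), with Thbs2 held by all 4. Among the 18 other matrix metalloproteinases they were Mmp17 and Mmp15, both membrane-type enzymes, with Mmp24 held by all 4. Among the 5 inhibitors it was Timp1, a secreted inhibitor of metalloproteinases. The 14 other S100 genes had 0 knockdown-only gene ends.

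These 8 were not all empty in the controls when the wider window was used. Over the locus window, Bmp1, Timp1, Thbs1 and Mmp17 were still without a control peak, while Col16a1, Ccn1 and Mmp15 had 1 or more in control replicate 2 and Serpinh1 had them in both controls. The weaker of the pair of gene-end peaks ranked between 64.8% (Ccn1) and 98.0% (Mmp15) of its list. With a −log10 q of at least 3, 3 of the 92 genes were knockdown-only, and with the 7608 strongest peaks of each library, 1.

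Markers of the cell types known to make most interstitial collagen were held by any library less often than all genes were. At gene ends the shares were 16.7% of 12 pericyte and smooth muscle genes and 8.33% of 12 fibroblast genes, against 48.5% of all genes. Over the locus window they were 50% and 16.7%, against 65.8%. Of 12 pericyte and smooth muscle genes, 0 and 1 held a peak at an end in the control lists and 1 and 1 in the knockdown lists, and locus peaks were found for 0, 2, 3 and 5 of them. Over the locus window, Rgs5, Kcnj8, Abcc9, Higd1b, Acta2 and Tagln had no peak in any library. Cnn1 was held by control replicate 2 and both knockdown libraries, Myh11 by both replicate 2 libraries, Notch3 by both knockdown libraries, Des by knockdown replicate 1 and Pdgfrb and Cspg4 by knockdown replicate 2. Of 12 fibroblast genes, 1 had a gene-end peak in every library, which was Cd34, also an endothelial gene. Locus peaks were found for 1, 1, 2 and 2 of those 12, from Cd34 in every library and Pi16 in both knockdown libraries, and the other 10, among them Pdgfra, Dpt, Fap and Prrx1, had none. Over all genes, the full lists gave locus shares of 35.4%, 53.9%, 54.6% and 61.7% for control 1, control 2, knockdown 1 and knockdown 2. Higher values in the knockdown libraries were thus found for genes at large. The locus counts of pericyte genes were likewise higher there, as were those of the 9 members, so this sets neither list apart. Neither order held with the 7608 strongest peaks of each library, where the pericyte counts were 0, 1, 0 and 1, or with a −log10 q of at least 3, where they were 0, 2, 1 and 2. The part of these cells in the member peaks was not tested. In such a sorted sample, a peak from few cells and a weakly open site in all cells cannot be told apart. Of 10 leukocyte genes, 1 had a gene-end peak in control replicate 1 and 0 elsewhere. Of 10 Muller glia and astrocyte genes, 4 had a gene-end peak in each library. Over the locus window, leukocyte genes with a peak numbered 4 in each library and Muller glia and astrocyte genes 5, 5, 6 and 6. The gene-end shares of all genes were 22.0%, 38.5%, 39.5% and 45.2% in control 1, control 2, knockdown 1 and knockdown 2.

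**Figure D3:**
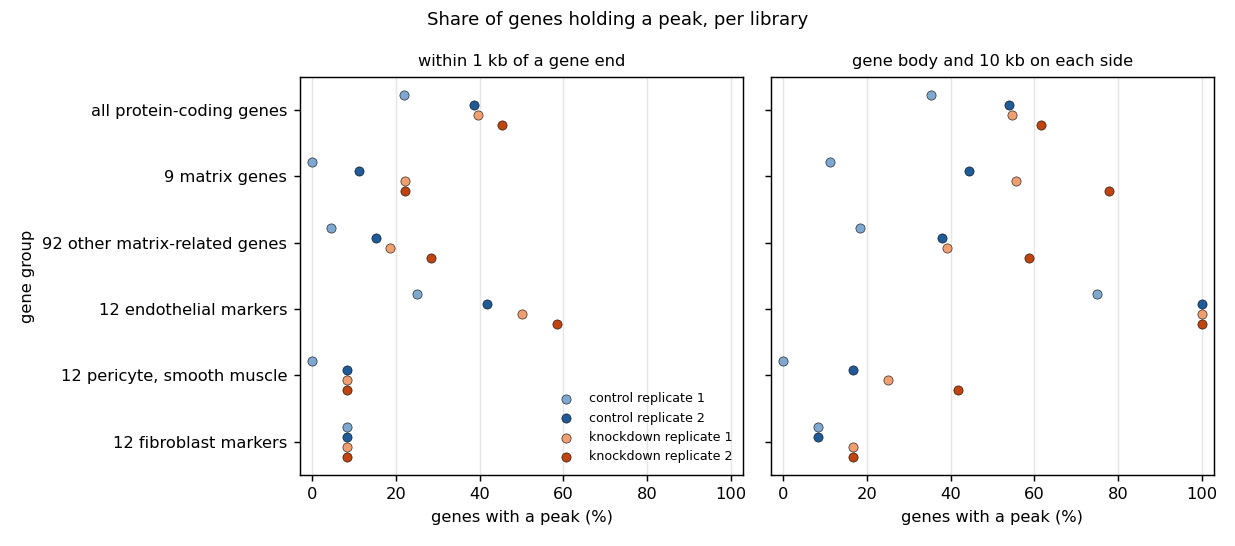
Share of genes with a peak in each library, within 1 kb of a gene end (left) and over the gene body with 10 kb on each side (right). The x axis is the percentage of genes in the group that hold a peak, the y axis the gene group, and each point a library. At gene ends the 9 matrix genes and the 92 related genes lie below the share of all genes in every library; over the wider window 1, 4, 5 and 7 of the 9 genes held a peak in control 1, control 2, knockdown 1 and knockdown 2, against 35.4%, 53.9%, 54.6% and 61.7% of all genes, with the full lists of unequal length.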

How the data were processed

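ATAC-seq peaks were available for 4 libraries, 2 control and 2 Zeb1 knockdown, as broad peak lists on mm10, 1 per library and not pooled. The submitters' processing notes name MACS2 2.1.1, Bowtie2 2.3.2, Trimmomatic 0.36, bedtools 2.26.0, SAMtools 1.3 and Picard 2.9.2. Their roles, settings, the filter applied to the lists and any shift for the transposase are not given in the sources used here. Each deposited peak has a score, made by the authors from its −log10 q, and a fold enrichment, the ratio over its own library's background. The deposited −log10 p and −log10 q per peak were used only to rank or filter within a list. Every deposited −log10 q was above 1.

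Gene ends came from an NCBI RefSeq table on GRCm38.p6, the assembly that mm10 stands for, and promoter sequences from RefSeq on the same build. The gene table gives no exons, so exons, introns and UTRs were not told apart. A library held a gene if a peak overlapped the window by at least 1 bp. Peaks that overlapped or touched were merged into regions. Windows and patterns were computed in Python 3.11.15 with pandas 2.3.3 and tested on simulated data. Groups came from the sample titles. All 9 genes were named. From the 6 pathway lists, up to 6 knockdown-only and 6 control-only gene ends and 3 held by all 4 libraries were named, in order of the weakest rank, and from the 6 marker lists up to 5 held by all 4; the pericyte, smooth muscle and fibroblast genes named beyond this were chosen after their values were seen. The members and lists were chosen with earlier results of these data known. No set test was run. Alternatives were stricter thresholds, equal list lengths, other windows and overlaps, and each library left out; that with a 0.5 kb gene-end window, that with all sequences including Y and those on the pathway and pericyte lists were chosen after seeing the data.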

Additional observations from a re-analysis of the deposited data

How the results depend on the processing

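Col1a1 was the only member that was knockdown-only at a gene end. This count of 1 went to 0 under a −log10 q limit of 3 and with the 7608 strongest peaks of each library. It also went to 0 with at least 50% of the peak inside the window and with a gene-end window of 0.5 kb. With a window of 3 kb it went to 2 and added Mmp14, whose peaks lay at opposite ends of the gene. They were 1282 bp beyond its high-coordinate end in knockdown 1 and 2573 bp inside its low-coordinate end in knockdown 2. Over the locus window the count of 1 went to 0 with a −log10 q of at least 3 and with equal list lengths. The knockdown-only regions, 3 in all, went to 0 under both of these settings and to 1 with flanks of 5 kb. The count of 1 member held by all 4 libraries (Sparc) went to 0 under the same −log10 q limit. The pathway genes with a knockdown-only gene end, 8 in all, numbered 3 under the stricter −log10 q and 1 under equal list lengths.

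With each library left out in turn, the knockdown-only members ranged from 1 to 2 at gene ends and from 1 to 4 over the locus window. Leaving out a library loosens the pattern for every gene and region. No matching shares over all genes or regions are given for these settings, so the counts describe no trait of the members. Without control replicate 2, Fn1 was added at gene ends, and Fn1, Mmp2 and Mmp14 over the locus window. Without knockdown replicate 1, Mmp9 and S100a4 were added over the locus window. Members held by all remaining libraries ranged from 1 to 4, the highest without control replicate 1, where Fn1, Mmp2 and Mmp14 joined Sparc. Knockdown-only regions ranged from 3 to 7: there were 5 without control replicate 2, 7 without knockdown replicate 1 and 5 without knockdown replicate 2. The pathway count ranged from 8 to 16, the highest without knockdown replicate 1. Without control replicate 1, the knockdown-only counts were those of all 4 libraries.

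No test was run on the members, so the replicate block gives values only. Within a replicate number, the members held by the knockdown and not by the control library of that number were 2 and 1 at gene ends, and 4 and 3 over the locus window, for numbers 1 and 2, where 18.1% and 8.58%, and 21.5% and 9.57%, of all genes had the pattern. For single members, the number of libraries holding a peak was fewer in 18 and more in 4 of 90 recomputed values, and ranking by fold enrichment moved the median rank of the 31 peaks from 70.5% to 66.5%. The unknown read depth and the short list of control replicate 1 limit what a missing peak can show.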
